A study of Mus musculus with 12 samples.

Results

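Podocytes are the epithelial cells that wrap the capillaries of the kidney glomerulus, and the 31 genes described here encode proteins by which podocytes are recognised or hold their shape. They were taken as a list of named genes, each represented by its brightest usable probe on the array, and all 31 were measured, out of 25947 genes and transcripts tested. By their known expression within the kidney, 20 of them are treated here as the podocyte core and 11 as a broader set that tubular, vascular or other renal cells also express. Both the genes and this split were chosen with earlier results of these data known. RNA of 12 kidneys from male mice was labelled with Cy3 and hybridised to 1-colour Agilent microarrays with printed probes of up to 60 bases.

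The 4 groups held 3 arrays each. Wild-type (WT) mice and Jaml knockout (KO) mice, on the background written as C57/6J, had each undergone either a sham operation or ischemia-reperfusion injury (IRI), and the injured kidneys are labelled 24 h. For IRI, both renal pedicles were closed under pentobarbital sodium anaesthesia and then reopened. How long they were closed is not settled by the labels, which name 40 min of clamping in 1 place and 30 min of ligation in another. The labels do not give the mice's age or the construction of the knockout. The 3 samples of a group are described as independent, and so few arrays limit the precision of every value.

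Each podocyte sends out foot processes that interlock with those of its neighbours, and the gap between them is bridged by the slit diaphragm, a cell junction built around nephrin. An actin cytoskeleton inside the foot processes, integrins on the basement membrane and a negatively charged surface coat keep that architecture open, and a small set of transcription factors maintains it. Mutations in many of these genes cause proteinuria in people, and foot process effacement is the common response of the cell to injury. Ischemia-reperfusion injures mainly the tubules of the outer medulla. Podocytes are a minor cell population in whole kidney RNA, and the signal of the broader set can come from other renal cells too.

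Levels below are log2 intensities relative to the 75th percentile of each array, so 0 is the level of a probe at that percentile and negative values lie under it; they are compared between arrays for 1 probe, never between probes. Differences are log2 IRI minus sham or KO minus WT, with the standard error (SE) of the limma fit, and a gene is said to have risen or fallen if its Benjamini-Hochberg adjusted p over all 25947 was under 0.05. All 31 genes were well above background on all 12 arrays by the probe used. All 6 WT arrays were on 1 slide and all 6 KO arrays on another, with 1 scan per slide as the file headers give it, so genotype and slide cannot be told apart, whereas IRI and sham arrays of a genotype shared a slide. In KO sham kidneys Jaml itself was lower by 2.79 ± 0.56 (SE, adjusted p = 0.0152) and after IRI the difference of -1.57 did not pass (adjusted p = 0.153). Lcn2, a tubular injury gene, rose by 5.27 after IRI in WT and by 5.64 in KO kidneys. The tested proximal tubule genes fell in 5 of 12 cases in WT and 8 of 12 in KO kidneys. One array stood apart: WT IRI replicate 1 deviated from its group mean by 0.579 (root mean square over genes) against 0.205 to 0.433 on the other 11, and was the lowest of all 12 arrays for 15 of the 31 podocyte genes, against 23.7% of all genes. By 10 genes of T and natural killer (NK) cells WT sham replicates 1 and 2 stood apart too, with summed levels (log2) of 5.19 and 5.18 against 2.19 on replicate 3 and 0.752 to 2.097 on the other 9 arrays.

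The first comparison asks how the podocyte genes stood 24 h after IRI in WT kidneys. Most values were negative, and most of these did not pass the test. Of the 31, 8 (25.8%) were called, against 12.0% of all genes tested. There were 6 that fell (19.4% of the 31, against 5.90% of all genes): Trpc6, Clic5, Thsd7a, Ildr2, Magi2 and Sema3g. The 2 that rose (6.45%, against 6.08% of all genes) were Inf2 and Itga3, both from the broader set. Over all 31 the median difference was -0.23, with 24 negative values, beside a median of -0.0057 over all genes with 50.6% negative. In the podocyte core 4 of 20 fell, none rose and the median was -0.27; in the broader set 2 of 11 fell, 2 rose and the median was -0.11. The IRI arrays lay wholly below the sham arrays for 13 of the 31 (15.1% of all genes did so) and wholly above for 4 (17.2% of all genes). In whole kidney RNA, fewer podocytes and less RNA per podocyte cannot be told apart.

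In Jaml KO kidneys 2 of the 31 were called after IRI (6.45%, against 6.16% of all genes), Trpc6 and Magi2, and both fell, while 4.05% of all genes fell. That share is close to the background. The median difference was -0.16 with 19 negative values, beside -0.082 over all genes with 60.1% negative. Sham and IRI arrays did not overlap for 14 of the 31, 10 of them lower and 4 higher, against 21.8% and 13.9% of all genes.

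**Figure D1:**
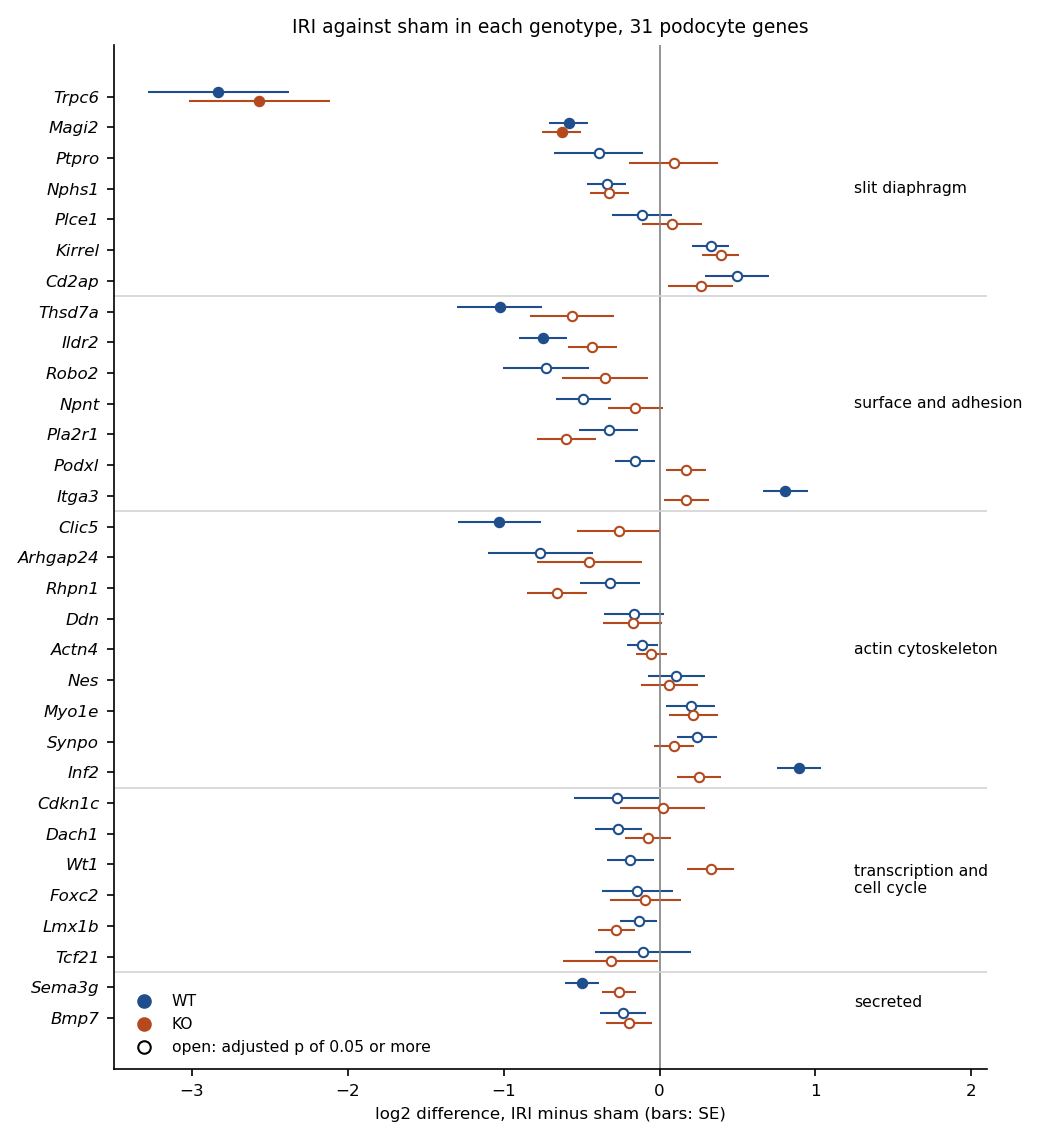
Log2 difference between IRI and sham kidneys (horizontal axis) for the 31 podocyte genes, grouped by role, in WT (blue) and Jaml KO (orange) kidneys; points are the limma estimates from 3 arrays per group, bars are SE, and filled points have an adjusted p under 0.05. Filled points number 8 in WT and 2 in KO, and Trpc6 lies farthest from 0 at -2.83 and -2.57.

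The slit diaphragm genes numbered 7, of which 2 fell in each genotype, Magi2 and Trpc6, and none rose. Magi2 encodes a membrane-associated scaffold that binds nephrin from inside the cell. Its level was 0.28, 0.59 and 0.34 in WT sham and -0.30, -0.13 and -0.11 in WT IRI kidneys. In the KO it was 0.52, 0.73 and 0.52 after sham and -0.11, -0.082 and 0.084 after IRI. Every IRI array lay below every sham array in both genotypes. The difference was -0.58 ± 0.13 (SE, n = 3 against 3, adjusted p = 0.0182), or 1.496-fold lower, in WT and -0.63 ± 0.13 (adjusted p = 0.0188), or 1.54-fold lower, in KO kidneys. The test of the difference between genotypes was not passed by Magi2 or any other of the 31. The other 3 kept Magi2 probes gave -0.46, -0.40 and 0.19 in WT and -0.48, 0.73 and -0.99 in KO kidneys. Of these the last, for a separate transcript model, fell in the KO (adjusted p = 0.0495 over all 39449 kept probes).

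Trpc6 encodes a calcium-permeable channel at the slit diaphragm, and activating mutations in it cause focal segmental glomerulosclerosis in people. The probe used read -1.14, -1.05 and -1.62 in WT sham against -4.25, -4.12 and -3.93 in WT IRI kidneys. In the KO the levels were -2.58, -1.62 and -2.15 after sham and -3.59, -5.75 and -4.72 after IRI. Groups did not overlap in either genotype. The difference was -2.83 ± 0.45 (SE, adjusted p = 0.0064), or 7.11-fold lower, in WT and -2.57 ± 0.45 (adjusted p = 0.0122), or 5.92-fold lower, in KO kidneys. The other usable Trpc6 probes did not show it. They lie 51.25 and 52.463 kb further along the gene and are assigned to transcript NM_013838, whereas the brightest probe is at chr9:8628219-8628278 (mm9, plus strand) and is assigned to NM_001282087 alone. Their differences were 0.24 ± 0.53 and -0.55 ± 0.50 in WT and 0.39 ± 0.53 and -0.052 ± 0.50 in KO kidneys, none of them called, and they were well above background on only 4 and 10 of the 12 arrays.

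The sequences of the Trpc6 probes differ in kind, which is why they are shown. Bases 11 to 40 of each, counted from the probe's 5′ end as the files print it, follow, with every CACA or ACAC word in capitals.
Probe for NM_001282087, the brightest: tctCACACACACACttacatACACACACAt
First probe for NM_013838: gagactcattaaaagatatgtattgcaggc
Second probe for NM_013838: tatcaactttttgggtgattaaattgcatt
The brightest probe holds 19 overlapping CACA or ACAC words in its 60 bases, and the others hold 0. Across the array 32 kept probes, for 32 genes, held 19 or more such words. Of these, 31 were called lower after IRI in each genotype (adjusted p under 0.05 over all kept probes). That was 96.9%, against 5.06% of all kept probes in WT and 3.40% in KO. Without the Trpc6 probe, 30 of the 31 were called lower in each, with medians of -1.68 in WT and -1.90 in KO kidneys. All 31 were negative, at -2.84 to -1.15 in WT and -2.72 to -1.10 in KO kidneys. The median level of those 31 probes was 2.65, 2.58 and 2.48 on the WT sham arrays and 0.54, 1.06 and 1.07 on the WT IRI arrays. On the KO arrays it was 1.66, 2.70 and 1.87 after sham and 0.64, -0.84 and 0.69 after IRI, where KO IRI replicate 2 was the lowest, as it was for Trpc6.

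**Figure D2:**
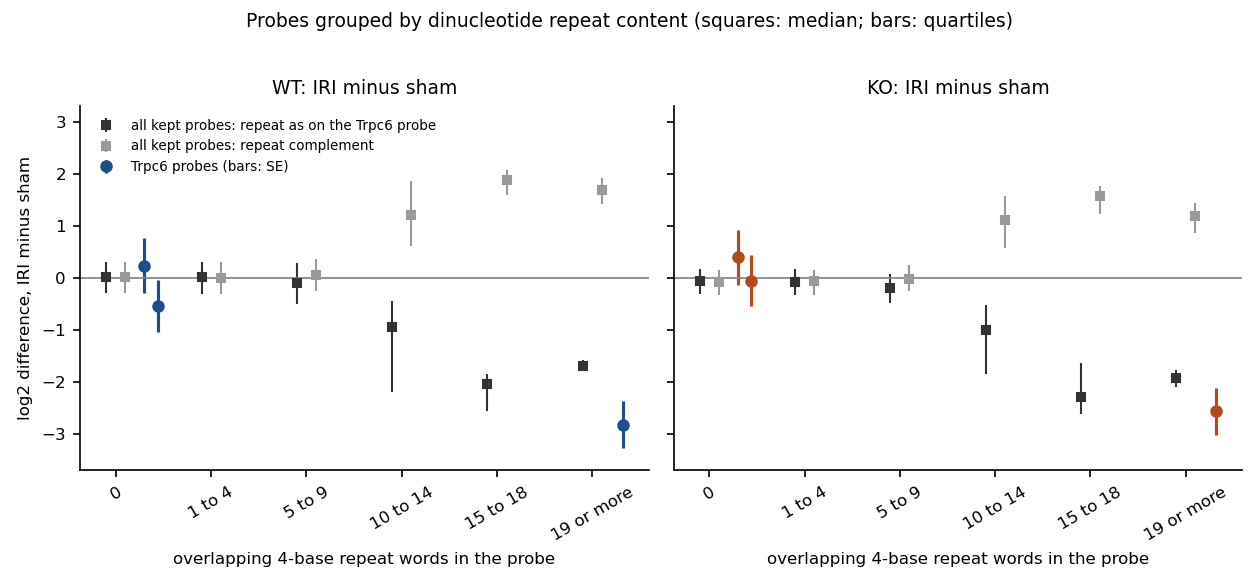
Log2 difference between IRI and sham (vertical axis) of all 39449 kept probes grouped by how many overlapping 4-base repeat words they hold (horizontal axis), in WT (left) and KO (right) kidneys; squares are medians with quartile bars, dark for the repeat on the brightest Trpc6 probe and grey for its complement, and circles are the 3 Trpc6 probes with SE. Medians lie between -0.20 and 0.062 up to 9 words. They are lowest at 15 to 18 words (-2.04 in WT, -2.28 in KO) and stand at -1.70 and -1.93 at 19 or more. Those of the complement go the other way, to 1.88 in WT and 1.57 in KO at 15 to 18 words, and 1.70 and 1.18 at 19 or more.

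The share of probes called lower grew with the number of words. Among probes with 10 to 14 words 24 of 47 were called lower in WT, with a median of -0.95. Among those with 15 to 18 words 16 of 19 were, with a median of -2.04, while the median was 0.015 among probes without the word. Probes rich in the complementary GTGT or TGTG words moved the opposite way. Of 59 with 19 or more, 58 were called higher in WT and 7 in KO kidneys. Their medians were 1.70 in WT and 1.18 in KO, with lower quartiles of 1.42 and 0.86. The part of the repeat in the Trpc6 result was not tested beyond these values. With repeat-rich probes (10 or more words of either kind) left out, Trpc6 was represented by its next probe and was not called, which leaves 7 of 31 in WT (against 11.1% of all genes) and 1 of 31, Magi2, in KO kidneys (against 5.76%), and moves the KO median to -0.092 against -0.083 over all genes. Among the other 30 podocyte genes the probe used held at most 2 CACA or ACAC words, except that of Nphs1 with 7.

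Nphs1 encodes nephrin, the protein that spans the slit. Its level was -0.051, -0.020 and -0.045 in WT sham and -0.38, -0.28 and -0.48 in WT IRI kidneys. In the KO it was 0.38, 0.29 and 0.19 after sham and 0.16, -0.0005 and -0.27 after IRI. All IRI arrays lay below all sham arrays within each genotype, by a small amount. The differences of -0.34 ± 0.13 (SE, adjusted p = 0.106) in WT and -0.32 ± 0.13 (adjusted p = 0.176) in KO kidneys did not pass. A second nephrin probe gave -0.47 and -0.34, again not called.

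Ptpro, a receptor tyrosine phosphatase of the podocyte surface near the slit, showed 1 deviating array. It read 1.42, 1.36 and 1.52 in WT sham, 0.23, 1.63 and 1.27 in WT IRI, 1.40, 1.40 and 1.30 in KO sham and 1.35, 1.67 and 1.35 in KO IRI kidneys. WT IRI replicate 1 was the low one, and the difference of -0.39 ± 0.29 did not pass (adjusted p = 0.401) and was 0.015 without that array. Kirrel, a nephrin-like partner in the junction, lay above sham on every IRI array in both genotypes, with differences of 0.33 (adjusted p = 0.0990) and 0.39 (adjusted p = 0.0844). Cd2ap, an adaptor between nephrin and actin, differed by 0.50 in WT (0.24 without WT IRI replicate 1) and 0.26 in KO kidneys, and Plce1, a phospholipase, by -0.11 (0.059 without that array) and 0.079, none of them called. A second Plce1 probe gave 0.54 in WT kidneys and was called there (adjusted p = 0.0408 over probes), opposite in sign to the brighter probe.

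**Figure D3:**
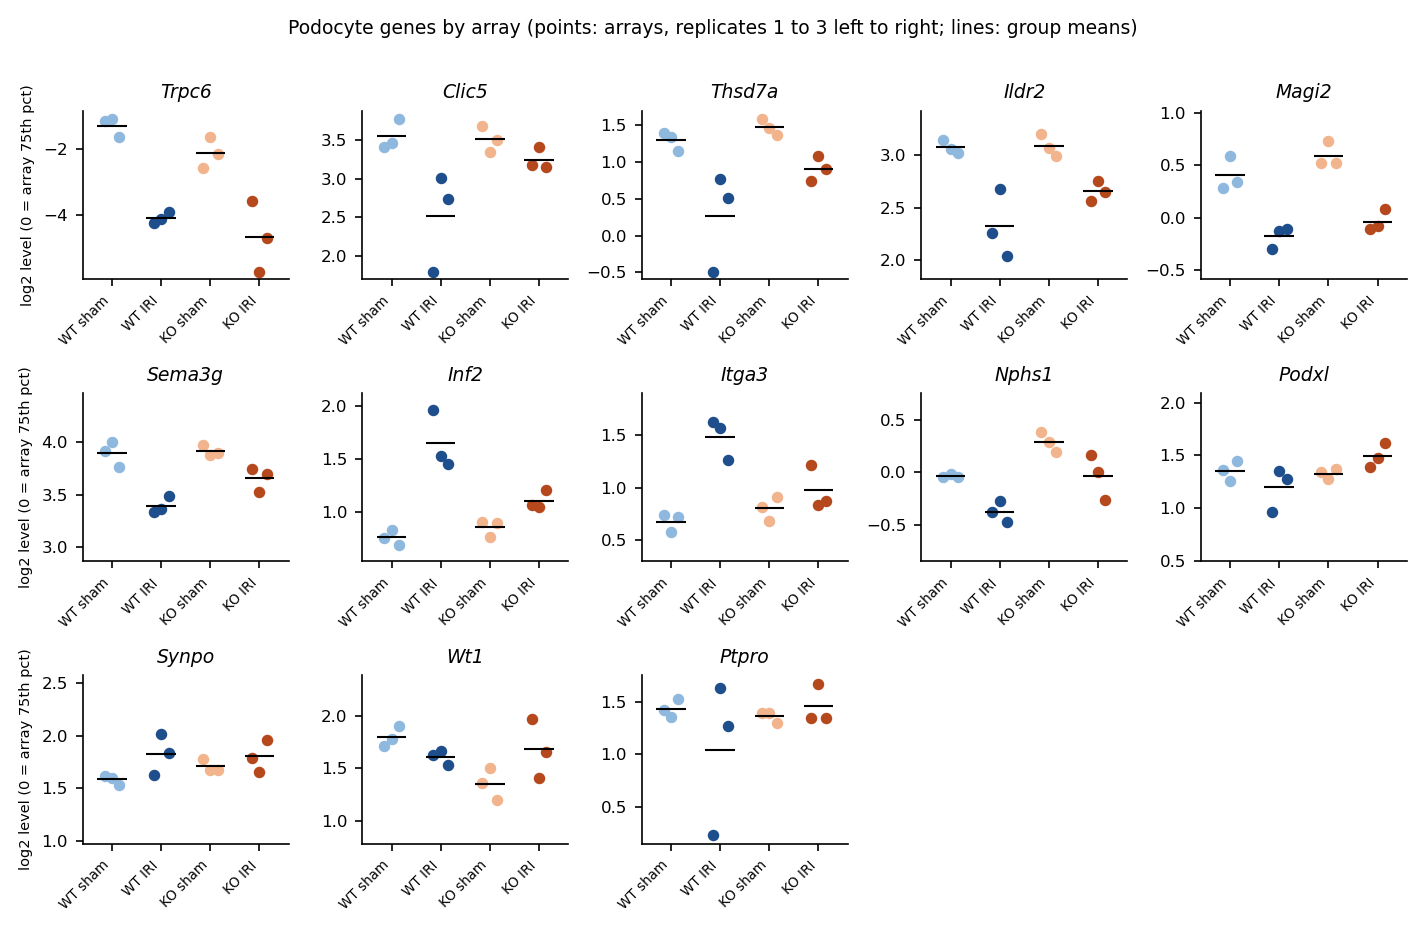
Log2 level relative to the array's 75th percentile (vertical axis, with a separate range for each gene) of the 8 podocyte genes called in either IRI comparison and of Nphs1, Podxl, Synpo, Wt1 and Ptpro, by group (horizontal axis); points are arrays, with replicates 1 to 3 from left to right, and lines are group means of 3. Magi2 separates sham from IRI in both genotypes, whereas Podxl and Ptpro overlap in WT kidneys.

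The surface and adhesion genes also numbered 7. In WT kidneys 2 fell, Thsd7a and Ildr2, and 1 rose, Itga3; in KO kidneys none was called, and their medians were -0.49 and -0.35. Thsd7a encodes a podocyte membrane protein that is an autoantigen in membranous nephropathy. Its level was 1.39, 1.34 and 1.15 in WT sham and -0.49, 0.77 and 0.51 in WT IRI kidneys. In the KO it was 1.59, 1.46 and 1.36 after sham and 0.74, 1.08 and 0.91 after IRI. The groups separated in both genotypes, with WT IRI replicate 1 far below the rest. The WT difference was -1.03 ± 0.27 (SE, adjusted p = 0.0360), or 2.04-fold lower, and -0.65 without that array, still called, and the KO difference was -0.56 ± 0.27 (adjusted p = 0.269). All 4 kept Thsd7a probes were negative in both genotypes, and 3 of them were called in WT kidneys.

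Ildr2, an immunoglobulin-like membrane protein, read 3.14, 3.06 and 3.02 in WT sham and 2.26, 2.68 and 2.04 in WT IRI kidneys. KO values were 3.20, 3.07 and 2.99 after sham and 2.56, 2.75 and 2.65 after IRI. Again sham and IRI arrays did not overlap in either genotype. It differed by -0.75 ± 0.16 (SE, adjusted p = 0.0168), or 1.68-fold, in WT and by -0.43 ± 0.16 (adjusted p = 0.144) in KO kidneys. Its second probe fell likewise in WT kidneys, by 0.78 (adjusted p = 0.0148 over probes).

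Itga3 encodes the integrin subunit that anchors podocytes to laminin and is also made by tubular epithelium. Levels were 0.74, 0.57 and 0.72 in WT sham and 1.62, 1.57 and 1.26 in WT IRI kidneys, without overlap. KO kidneys read 0.81, 0.68 and 0.91 after sham and 1.22, 0.83 and 0.87 after IRI, with overlap. The difference was 0.81 ± 0.15 (SE, adjusted p = 0.0102), or 1.75-fold higher, in WT and 0.17 ± 0.15 (adjusted p = 0.551) in KO kidneys; the difference between genotypes of -0.63 (95% interval -1.09 to -0.18) had an adjusted p of 0.375. A second Itga3 probe, also well above background on all arrays, gave 0.024 and -0.050, so the WT rise rests on 1 probe of 2.

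Podxl encodes podocalyxin, the sialoprotein that gives the podocyte surface its negative charge. It read 1.36, 1.26 and 1.45 in WT sham and 0.97, 1.35 and 1.27 in WT IRI, and 1.34, 1.27 and 1.37 in KO sham and 1.39, 1.48 and 1.62 in KO IRI kidneys. Only WT IRI replicate 1 was below all other arrays. The WT difference was -0.16 (95% interval -0.44 to 0.12), or -0.043 without that array, and the KO difference 0.17 (-0.11 to 0.45), neither called. Robo2, a receptor for slit ligands that binds the nephrin complex, was negative in both genotypes by each of its 6 kept probes, and the brightest gave -0.73 ± 0.28 (adjusted p = 0.111) in WT and -0.35 in KO kidneys, with -0.42 in WT when replicate 1 of the IRI arrays was left out. Averaged over its probes, Robo2 was called in WT kidneys. In KO kidneys 2 of the other Robo2 probes fell, with differences of -1.101 and -0.81 (adjusted p = 0.0494 and 0.0491 over probes). Npnt, the integrin ligand nephronectin, differed by -0.49 (-0.29 without WT IRI replicate 1) and -0.16, and Pla2r1, the main autoantigen of membranous nephropathy, by -0.33 (-0.18 without that array) and -0.60 (adjusted p = 0.0956 in KO).

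Among 9 genes of the actin cytoskeleton, Clic5 fell and Inf2 rose in WT kidneys, and none was called in KO kidneys. Clic5, a chloride channel family protein that links ezrin at the foot process membrane to actin and is also made by endothelium, was 3.403, 3.46 and 3.77 in WT sham and 1.80, 3.01 and 2.74 in WT IRI kidneys. In KO kidneys it was 3.68, 3.34 and 3.50 after sham and 3.18, 3.41 and 3.15 after IRI. WT groups separated, again with replicate 1 the lowest, and KO groups overlapped. The WT difference was -1.03 ± 0.27 (SE, adjusted p = 0.0341), or 2.04-fold lower, and -0.67 without replicate 1, still called, and the KO difference was -0.26 ± 0.27 (adjusted p = 0.635). A second Clic5 probe, on a cDNA clone, gave -0.16 and -0.026, not called.

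Inf2 encodes a formin that regulates actin and is mutated in familial focal segmental glomerulosclerosis; many renal cells express it. It stood at 0.75, 0.83 and 0.68 in WT sham and 1.97, 1.53 and 1.45 in WT IRI kidneys. KO values were 0.90, 0.76 and 0.89 after sham and 1.07, 1.04 and 1.20 after IRI. Both genotypes separated, WT by the wider margin. The difference was 0.90 ± 0.14 (SE, adjusted p = 0.0064), or 1.86-fold higher, in WT and 0.25 ± 0.14 (adjusted p = 0.346) in KO kidneys. The genotype difference in response was -0.64 (95% interval -1.09 to -0.20, adjusted p = 0.367), which did not pass.

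Synpo encodes synaptopodin, an actin-bundling protein of foot processes. It was 1.62, 1.601 and 1.53 in WT sham, 1.62, 2.02 and 1.84 in WT IRI, 1.78, 1.68 and 1.67 in KO sham and 1.79, 1.66 and 1.96 in KO IRI kidneys. The WT IRI arrays lay above the sham arrays, the lowest of them almost level with the highest sham array, and the differences of 0.24 ± 0.13 (adjusted p = 0.240) and 0.094 ± 0.13 (adjusted p = 0.734) did not pass. The other Synpo probes gave 0.10, -0.046 and 0.33 in WT and 0.034, -0.27 and -0.064 in KO kidneys, none of them called. Arhgap24, a Rac-inactivating protein, differed by -0.76 ± 0.34 in WT and -0.45 ± 0.34 in KO kidneys, not called, and its WT value was -0.30 without WT IRI replicate 1. Rhpn1 differed by -0.32 and -0.66 (adjusted p = 0.0783 in KO). Actn4 (alpha-actinin-4), Ddn (dendrin), Nes (nestin) and Myo1e (a class I myosin) differed by -0.17 to 0.22 in either genotype, and Ddn, negative in WT kidneys, was at 0.024 without WT IRI replicate 1. A second Actn4 probe gave 0.015 in WT and -0.65 in KO kidneys, not called. The other Myo1e probes gave 0.33, 0.41 and 0.21 in WT and 0.053, -0.14 and -0.098 in KO kidneys, none of them called.

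The 6 regulators of transcription and the cell cycle gave no call in either genotype. Wt1, the zinc finger factor that defines the podocyte lineage, read 1.71, 1.77 and 1.90 in WT sham and 1.62, 1.67 and 1.53 in WT IRI kidneys. In KO kidneys it read 1.36, 1.503 and 1.19 after sham and 1.97, 1.41 and 1.66 after IRI. WT levels were lower after IRI on every array and KO levels overlapped, with differences of -0.19 ± 0.15 (adjusted p = 0.449) and 0.33 ± 0.15 (adjusted p = 0.248). A second Wt1 probe, well above background on all 12 arrays, gave 0.067 in WT, opposite in sign, and 0.12 in KO kidneys, not called. Between genotypes the Wt1 response differed by 0.51 (95% interval 0.040 to 0.99, adjusted p = 0.480). Tcf21, Lmx1b, Foxc2, Dach1 and the cell cycle inhibitor Cdkn1c differed by -0.27 to -0.11 in WT and -0.31 to 0.021 in KO kidneys. By the probe used all 6 were negative in WT kidneys, and none was called. For Foxc2 and Cdkn1c the sign rested on WT IRI replicate 1, without which their differences were 0.16 and 0.092.

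Both secreted products were negative in both genotypes. Sema3g, a class 3 semaphorin made by podocytes, was 3.92, 3.996 and 3.76 in WT sham and 3.33, 3.36 and 3.49 in WT IRI kidneys. KO kidneys gave 3.97, 3.88 and 3.89 after sham and 3.74, 3.53 and 3.69 after IRI. No IRI array reached a sham array of its genotype. It fell by 0.50 ± 0.11 (SE, adjusted p = 0.0203), or 1.41-fold, in WT kidneys, while the KO difference of -0.26 ± 0.11 did not pass (adjusted p = 0.213). Its second probe was also called in WT kidneys (-0.47). Bmp7, a growth factor that tubules make too, differed by -0.23 and -0.19.

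**Figure D4:**
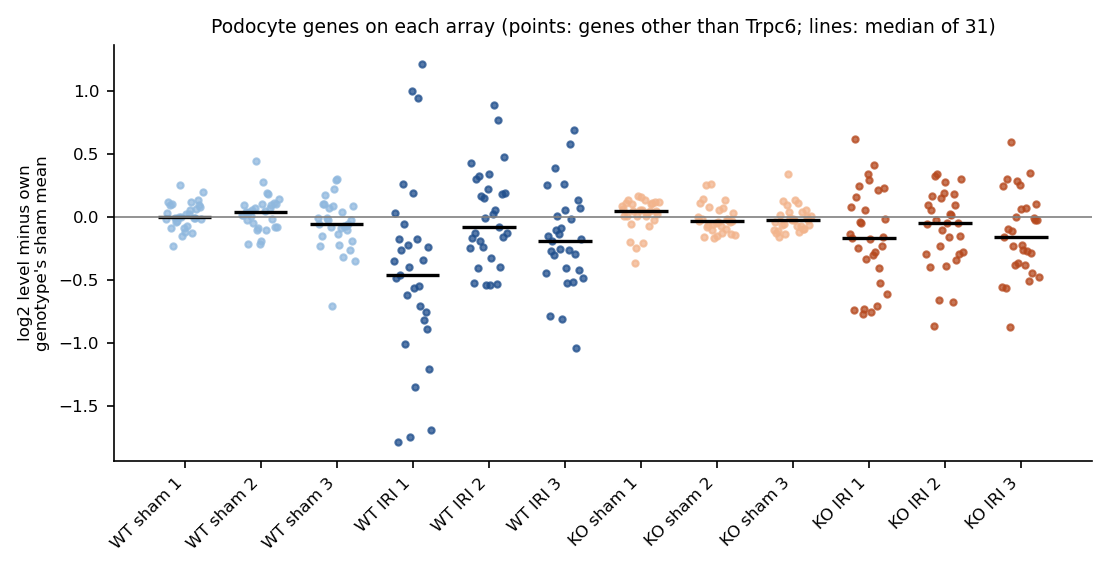
Log2 level of each podocyte gene minus the mean of its own genotype's 3 sham arrays (vertical axis) on each of the 12 arrays (horizontal axis); points are the 30 genes other than Trpc6, which lies outside the range, and lines are medians of all 31. The lines of the IRI arrays lie at -0.46, -0.072 and -0.19 in WT and at -0.16, -0.047 and -0.16 in KO kidneys.

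Arrays of 1 group did not carry the shift equally. The median of the 31 genes against the WT sham mean was -0.46 on WT IRI replicate 1, -0.072 on replicate 2 and -0.19 on replicate 3, and in the KO it was -0.16, -0.047 and -0.16. Without WT IRI replicate 1 the median difference over the 31 was -0.14 in place of -0.23, beside -0.014 over all genes. The same 8 genes were then called, with 13.5% of all genes called. The summed level of the 20 core genes (log2) was 5.89 to 5.96 in WT sham, 5.30 to 5.80 in WT IRI, 5.94 to 6.05 in KO sham and 5.84 to 5.96 in KO IRI kidneys, with WT IRI replicate 1 at the lower end. That array also had the highest summed level of the 8 parietal epithelial genes (7.08, against 6.49 on both other WT IRI arrays and at most 5.85 in WT sham) and of the 5 erythroid genes (6.47, against 5.67 and 5.94). The 10 T and NK cell genes fell in 9 cases in WT kidneys (Cd3g at -4.27, Gzmb at -3.92) and in 0 in KO kidneys. Their summed level was 5.19, 5.18 and 2.19 on the WT sham arrays and 0.998 to 1.52 in WT IRI kidneys. It was 1.24 to 2.097 in KO sham and 0.752 to 0.972 in KO IRI kidneys. Of 6 neutrophil genes 4 rose in WT kidneys, among them S100a8 (3.59), S100a9 (3.35) and Retnlg (3.83), while Ly6g fell by 0.95; in KO kidneys S100a8 and S100a9 rose, by 4.09 and 3.84. Erythroid genes rose in 4 of 5 cases and adipose genes in 3 of 5 in WT kidneys, against 0 of 5 and 1 of 5 in KO kidneys. The part of these other cells in the podocyte values was not tested.

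The counts depended on single arrays. Without WT sham replicate 2 the WT calls were 3 (Trpc6, Inf2 and Itga3), without WT sham replicate 1 they were 4 (with Magi2) and without WT IRI replicate 3 they were 5 (with Magi2 and Sema3g). The share of all genes called was then 3.26%, 3.32% and 4.64%, in place of 12.0%. KO calls were 1, Trpc6, when any KO sham array or KO IRI replicate 2 was left out, with 1.75% to 3.95% of all genes called. They were 5 without WT IRI replicate 1, with Kirrel, Pla2r1 and Thsd7a added, against 12.5% of all genes. Without KO IRI replicate 1 Magi2 lost its KO call and Rhpn1 gained one. Clic5 and Thsd7a also lost their calls without WT sham replicate 3 or KO sham replicate 1 or 3, and Thsd7a without KO sham replicate 2 or KO IRI replicate 3. Thsd7a kept its call under 12 of 22 alternative settings, Clic5 under 14 and Inf2 under 21.

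Between genotypes none of the 31 was called. After sham operation 0 of 31 passed, against 8.85% of all genes, and 4 had an unadjusted p under 0.05: Bmp7 at 0.47 ± 0.15 (adjusted p = 0.0756), Ddn at 0.58 ± 0.19 (adjusted p = 0.0890), Wt1 at -0.44 ± 0.15 (adjusted p = 0.101) and Nphs1 at 0.33 ± 0.13 (adjusted p = 0.144). The median over the 31 was 0.095, beside 0.12 over all genes. With array weights 8 of 31 were called, against 37.3% of all genes, and without WT IRI replicate 1, which enters only through the pooled spread, Bmp7 and Ddn were, against 17.0% of all genes. After IRI 0 of 31 passed, against 1.93% of all genes, and 10 had an unadjusted p under 0.05, led by Inf2 at -0.55 ± 0.14 (adjusted p = 0.0817) and Itga3 at -0.51 ± 0.15 (adjusted p = 0.1004), both lower in KO kidneys. The other 8 were all higher in KO kidneys: Arhgap24 (0.81), Clic5 (0.73), Thsd7a (0.64), Ddn (0.57), Bmp7 (0.51), Nphs1 (0.34), Podxl (0.30) and Sema3g (0.26). The median over the 31 after IRI was 0.23, beside 0.038 over all genes, and it was 0.082 without WT IRI replicate 1. The response to IRI differed between genotypes for 0 of 31, against 0.0694% of all genes, with Inf2, Itga3 and Wt1 at an unadjusted p under 0.05. The share of all genes with an unadjusted p under 0.05 is not given here, so these unadjusted counts cannot be read against a background. These genotype values cannot be told apart from the slides. Genes of other cells and lists differed between the genotypes as well. In KO sham kidneys 6 of 10 T and NK cell genes were lower (Gzmb at -5.07), as were 4 of 8 macrophage genes (Aif1 -1.93, C1qa -1.78, C1qb -1.59 and Fcgr1 -2.32) and 3 of 6 neutrophil genes (S100a8 -3.09, S100a9 -3.04 and Ly6g -1.94). Of 9 tubular injury genes 3 were lower in KO sham kidneys, Vcam1 (-1.97), Atf3 (-2.01) and Lcn2 (-1.67). From further lists Angptl4 (-2.12), Cd44 (-2.09), Anln (-1.55) and Nostrin (-0.96) were lower there, and Slc6a19 (1.12), Slc5a2 (0.83) and Col4a3 (0.61) higher. Between the IRI groups the tubular injury genes Sprr2f (-5.55) and Atf3 (-2.22) were lower in KO kidneys. The neutrophil genes Retnlg (-3.49) and Ly6g (-1.17) were lower there too, as was Plaur (-1.92). Their part in the podocyte values was not tested.

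Genes that work beside the podocyte set were read from lists of non-members. Of 12 glomerular basement membrane genes 4 rose in WT kidneys and none fell: Col4a1 (0.96), Col4a2 (0.83), Lama5 (0.82) and Lamc1 (0.53), chains of type IV collagen and laminin that tubules also deposit. In KO kidneys Col4a2 alone rose, by 0.74. Of 14 other genes of the slit diaphragm junction only Cdh3 (P-cadherin) rose in WT kidneys, by 1.17, and none was called in KO kidneys. Of 14 further actin regulators Cttn (cortactin) and Arhgdia rose in WT kidneys, by 0.65 and 0.47, and of 9 integrin adhesion genes Cd151, a laminin-binding integrin partner, rose by 0.60; none of either list was called in KO kidneys. Wtip, which binds WT1, was the single call among 10 other podocyte transcriptional regulators, and it rose by 0.50 in WT and 0.51 in KO kidneys. Of 11 secreted or signalling genes Ptgs2 (cyclooxygenase-2), Plaur (the urokinase receptor) and Bmper rose in WT kidneys, by 3.00, 2.12 and 2.04. Sema3a was called there too, but its probe was well above background on 0 of the 3 WT sham arrays. None of the 11 was called in KO kidneys.

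The other cells of the glomerulus gave few calls. Of 14 glomerular endothelial genes Ehd3, an endocytic protein, fell in WT kidneys by 0.98, and none was called in KO kidneys. Of 12 mesangial and pericyte genes Art3 fell, by 0.84 in WT and 1.03 in KO kidneys. Their medians were -0.050 and -0.20 in WT, beside -0.27 for the podocyte core. In KO kidneys they were 0.12 and 0.099, beside -0.22 for the core. Tubule genes had lower medians than the core in both genotypes. These were -0.51 in WT and -0.92 in KO for the proximal tubule, and -0.43 and -0.59 for the distal tubule and collecting duct. Of 8 parietal epithelial genes Krt8 and Krt18, keratins that injured tubules also make, rose in WT kidneys by 1.35 and 1.15.

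Promoter sequences (250 bases before to 50 after the start, RefSeq, GRCm38.p6) were at hand for 22 of the 31 genes, as 28 promoters. They were searched on both strands for the binding letters of factors that act in podocytes. GNGTGGGNG, the letters of WT1, was in 7 of the 28 (25%) and in 14.3% of all 32851 promoters of the same length, and CAGCTG, an E-box as TCF21 binds, was in 5 (17.9%) and in 16.3%. TAATTA, for LMX1B, was in 1, of Magi2 (3.57%), against 5.29%, and TGTTTAC, for FOXC factors, in 0 against 3.65%. A match describes letters only. Windows of 30 bases around the match, in capitals, are shown for nephrin and for the called genes Magi2, Sema3g and Thsd7a, each in the direction of the gene.
Nphs1, chr7:30459821-30459850, plus strand, GNGTGGGNG: gagtacctgtGAGTGGGTGagagggaggtg
Magi2, chr5:19226917-19226946, plus strand, GNGTGGGNG on the other strand: ctcctccccaCCCCCACGCcacccgctcac
Magi2, chr5:19226809-19226838, plus strand, CAGCTG: ccgctgccactgCAGCTGccatggatatcg
Magi2, chr5:19907279-19907308, plus strand, TAATTA: cattgaaaagttTAATTAcatttcattata
Sema3g, chr14:31217651-31217680, plus strand, CAGCTG: ctgtccacacctCAGCTGggtcagagtctc
Thsd7a, chr6:12749281-12749310, minus strand, CAGCTG: ctcccttccctaCAGCTGgcggcgggggct
No match to any of the 4 motifs was listed for Trpc6, Clic5, Ildr2, Inf2 and Itga3. As 9 of the 31 genes had no promoter at hand, a gene without a match was not necessarily searched.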

How the data were processed

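Total RNA of 12 kidneys was read on 1-colour Agilent arrays (62976 spots each). Per the file headers, the deposited values are linear intensities that Agilent Feature Extraction 10.7.1.1 had background-corrected within each array; the authors' own log2 levels were also deposited, and the submitters' processing notes name limma. Control and outlier spots were left out, spots of a probe averaged, and log2 processed signals reduced by each array's 75th percentile. Probes well above background on at least 3 of 12 arrays were kept (39449), with the brightest per gene representing it (25947). Groups were compared with limma 3.58.1 in R 4.3.3 over all 12 arrays (8 residual degrees of freedom), at a Benjamini-Hochberg adjusted p of 0.05, after a test on simulated data. Per-array values are given for every podocyte gene called in any comparison and for Nphs1, Podxl, Synpo, Wt1 and Ptpro. From other lists, up to 4 called genes are named, not always those of largest difference, or counts alone are given, and some lists are not described. Members, lists and roles were chosen with earlier results of these data known. Alternatives were other background corrections, normalizations, filters, probe summaries, weights, a replicate block and leaving out each array.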

Additional observations from a re-analysis of the deposited data

How the results depend on the processing

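None of the 8 WT and 2 KO calls changed sign under any of the 22 alternatives. In many of these the sign could not change, because the difference itself stays the same and only its spread or the correction moves. Examples are leaving out an array of the other genotype, the replicate block and fitting only the compared groups. In WT kidneys the 8 calls became 15 with array weights (34.4% of all genes were then called) and 1, Trpc6, when only the 6 WT arrays were fitted (1.61%); leaving out 1 array gave 3 to 10. In KO kidneys the 2 calls became 4 with normexp background correction (8.10% of all genes), 8 with array weights (22.2%), 0 with the mean over all kept probes (5.64%) and, in an alternative chosen after seeing the data, 1 without repeat-rich probes (5.76%); leaving out 1 array gave 1 to 5. Between sham groups the 0 calls became 8 with array weights (37.3%) and 1, Bmp7, with only the compared groups (15.6%), and leaving out 1 array gave 0 to 2. Between IRI groups array weights gave 1 call, Bmp7 (7.84%), and leaving out any 1 array gave 0, as it did for the difference in response. Trpc6 lost its call in both genotypes with the mean over probes and without repeat-rich probes (-0.55 in WT, -0.052 in KO by the latter). With the mean over probes Magi2 lost its call in both genotypes too (-0.31 in WT, -0.34 in KO). Itga3 also lost its WT call under that setting (0.42), and the WT calls were then 6 (11.6% of all genes), with Robo2 added. The authors' log2 values (median 5.71 on every array; r of at least 0.9995 with the log2 processed signal) gave the same 8 and 2 calls, as did quantile normalization. With either, 13.3% of all genes were called in WT and 6.3% in KO kidneys. Replicate numbers did not pair the samples (18 same-number pairs between groups correlated by -0.27 to 0.15, and 4 exceeded 0.1). With a replicate block the calls were 8 in WT (9.57% of all genes) and 2 in KO kidneys (4.44%). They were 0 between sham groups (6.87%), between IRI groups (1.08%) and for the difference in response (0.0193%). A slide block was not run because no group spans both slides and no slide holds both genotypes. Each added alternative, including single probes, was chosen after seeing the data.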
